A study of Arabidopsis thaliana with 33 samples.

Results

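The genes described here are 66 Arabidopsis thaliana genes that stood higher in flowers of the nzz mutant than in wild-type flowers on each of 4 arrays. They were selected on those values: the probe carried only a locus identifier and no gene symbol, the log2 ratio of nzz over wild type was above 0.5 (1.41-fold) on every nzz array, no nzz array was at the limit of the measurement, and the ms1 mutant was not above 0.3 on all 4 of its arrays from the same kind of tissue. These 66 genes are 0.531% of the 12434 gene probes annotated by a locus alone and 0.253% of all 26090 gene probes. Each of the 66 probes stands for a different gene, 64 of them protein coding and 2, AT2G14020 and AT4G09290, pseudogenes. With any annotation allowed, 135 probes met the same conditions on values, 5 of them with a symbol and 64 without a name.

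On each array, RNA from a mutant and from wild type competed for the same probes, labelled in different dyes (Cy3 and Cy5), and each sample pooled tissue from 50 plants. For nzz (the spl/nzz mutant) and for ms1, floral buds of stage 13 and younger were taken along with the inflorescence meristem (4 arrays each). For ap3, the tissue was restricted to the meristem and buds no older than early stage 10 (4 arrays). A further ms1 series divided ms1 and wild-type flowers by age into 7 samples, where sample 1 held stage 13 flowers, samples 2 to 6 each held the next 2 younger flowers, and sample 7 held the youngest buds with the meristem. Every series sample was measured in 3 sets collected on different days, 21 arrays in all. The wild type of each comparison was the matching tissue, and the sources used here name neither the mutant alleles nor the strain, nor say whether arrays shared a wild-type RNA extract.

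SPORELESS/NOZZLE (SPL, also NZZ) is a nuclear regulator that is needed for the first steps of sporogenesis: without it, the cells of the young anther do not form spore mother cells or a proper anther wall, and the ovule makes no megaspore mother cell. MALE STERILITY1 (MS1) acts later, in the tapetum, the tissue that feeds developing pollen, and APETALA3 (AP3) is a floral homeotic gene without which petals and stamens are replaced by other organs. An nzz flower therefore has stamens with little sporogenous tissue, an ms1 flower has anthers that fail to make viable pollen, and an ap3 flower lacks stamens. The arrays measured a whole inflorescence, so that a higher ratio can come from more cells of a type or from more RNA per cell, which cannot be told apart here.

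Positive log2 ratios mean higher in the mutant. The deposited values do not state this direction. It is likely but not settled, and with the opposite sign every "higher" and "lower" would change places. The base of the logarithm was inferred as well, and with base 2 each log2 ratio would be smaller by a factor of 3.32. For nzz the reading can be set against the dyes. Over the 16600 probes that had a value below the limit on every array, arrays with nzz in opposite dyes correlated across probes at r = 0.50 to 0.57, and arrays with nzz in the same dye at 0.78 to 0.81. Over all probes the opposite-dye correlations were -0.32 to -0.06. Of the 66 genes, 36 are among those probes. If the values were ratios of the dyes instead, none of the 66 would have 1 direction in nzz. The selection under the present reading fixes that outcome, so it is no check of the reading.

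A pair of arrays stood apart from the rest by their spread and their limited values. On ms1 array 2, 9.97% of values were at the limit and the interquartile range over all probes was 0.95 log2 units, against 0.35 to 0.49 on the other ms1 arrays. On the set 2 array of series sample 2, 16.8% of values were at the limit and the interquartile range was 1.08. Limited values were also frequent on the set 2 array of series sample 3 (9.7%) and the set 3 array of series sample 1 (8.56%), whose interquartile ranges were 0.63 and 0.49. The probe for SPL itself read -0.35, -0.29, -0.15 and -0.25 on nzz arrays 1 to 4, with an adjusted p of 0.174 by limma (-0.26 ± 0.12, SE, n = 4). The position of that probe in relation to the nzz mutation is unknown here, and so these values are no check of the labels. AP3 and MS1 have no named probe here.

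The mean nzz ratios of the 66 genes ran from 0.57 to 3.84 with a median of 0.81, that is 1.48-fold to 14.3-fold with a median of 1.76-fold. These values chose the genes and are given as a description. Most of the rises were modest: 48 genes had a mean under 1, 18 had a mean of at least 1 and 4 a mean of at least 2, and in 5 genes all 4 arrays were above 1. The SD of a gene over its 4 arrays was 0.05 to 2.39 (median 0.20). In a limma fit of the 12 mutant arrays, 8.32% of all probes were called higher in nzz, and 51 of the 66 genes were among them, a count that the selection itself produces.

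**Figure D1:**
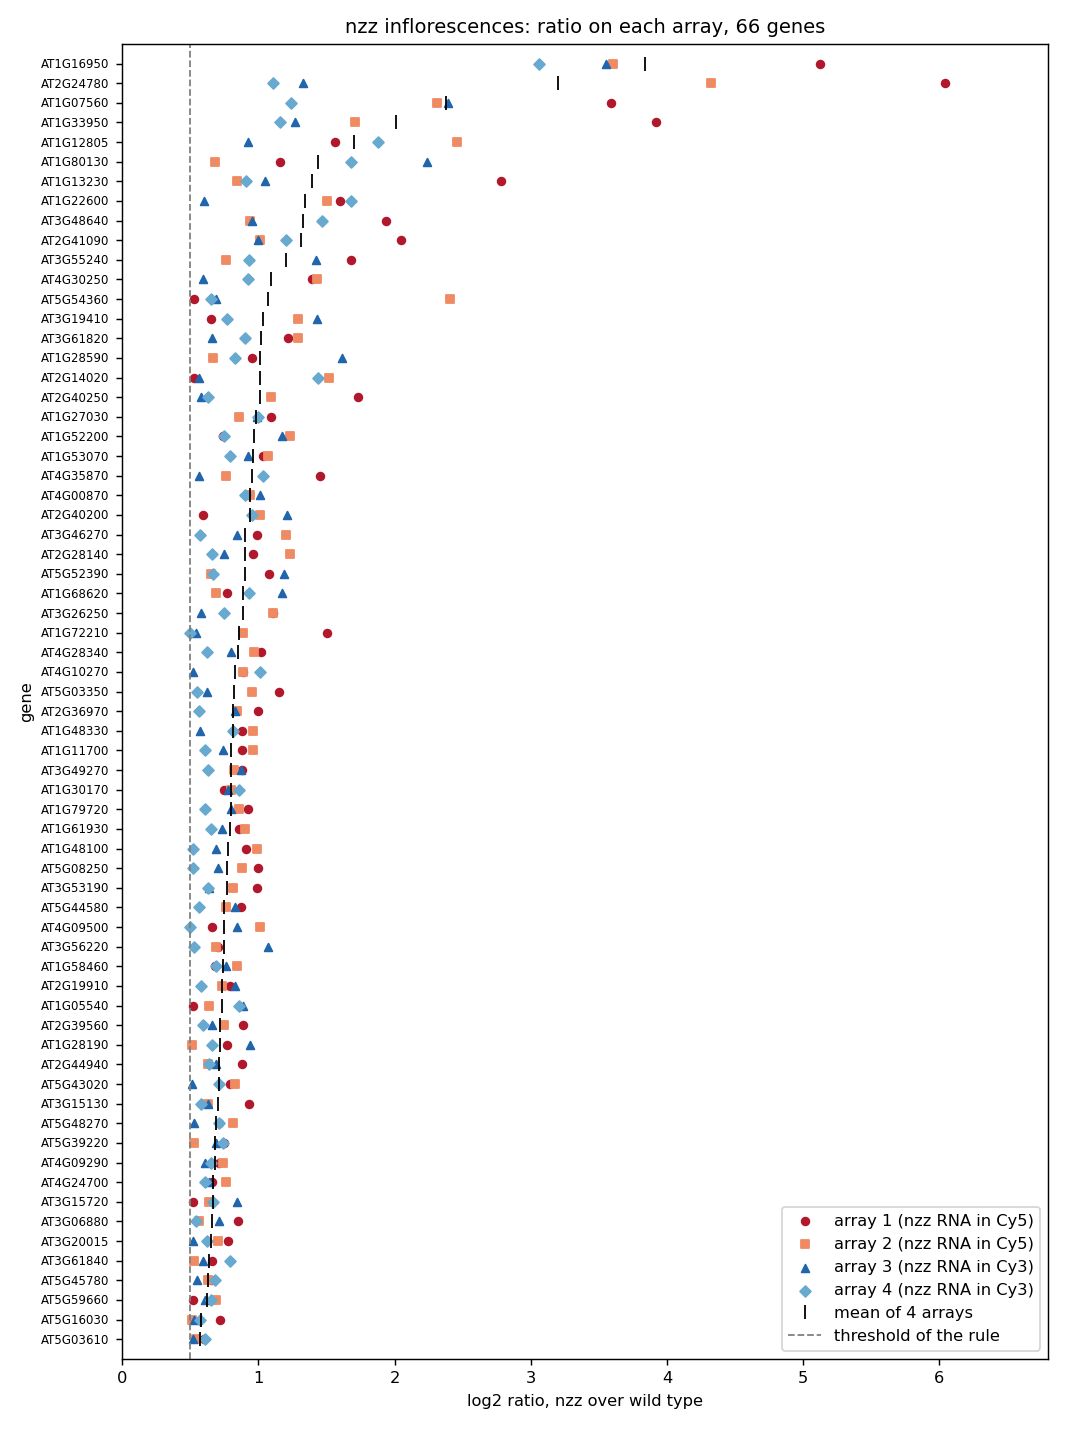
Log2 ratio of nzz over wild type (x axis) of each of the 66 genes (y axis, ordered by mean) on 4 arrays, with the dye of nzz RNA shown by colour and the mean as a short black line. All points lie right of the dashed threshold of 0.5, the top 4 genes have means of 2.01 to 3.84, and most genes lie close to the threshold.

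AT1G16950 had the highest mean of the 66. Its log2 ratios were 5.12, 3.60, 3.55 and 3.06 on nzz arrays 1 to 4, a mean of 3.84 ± 0.89 (SD, n = 4; 14.3-fold). It was not particular to nzz, since ms1 arrays 1 to 4 read 2.78, 3.54, 3.95 and -0.91, and only the last of these kept it in the selection.

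AT2G24780 was the least even of the genes. It read 6.04 and 4.32 on the arrays with nzz in Cy5 and 1.33 and 1.11 on those with nzz in Cy3, a mean of 3.20 ± 2.39 (SD, n = 4). Every nzz array was above 1, yet its Cy5 and Cy3 arrays differed by more than most other genes rose.

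AT1G07560 read 3.59, 2.31, 2.39 and 1.24 (mean 2.38 ± 0.96), and AT1G33950 read 3.92, 1.71, 1.27 and 1.16 (mean 2.01 ± 1.29; SD, n = 4 for both). In both, array 1 was the highest and array 4 the lowest. Their ms1 arrays did not keep 1 direction: AT1G07560 read 6.64 (at the limit), -0.56, -0.43 and 0.06, and AT1G33950 read -0.25, -6.64 (at the limit), 0.32 and 0.68.

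AT1G12805 read 1.56, 2.46, 0.92 and 1.88 in nzz, a mean of 1.7 ± 0.64 (SD, n = 4; 3.25-fold). AT1G80130 read 1.16, 0.68, 2.24 and 1.68, with the higher values on the arrays with nzz in Cy3. AT2G41090 read 2.05, 1.01, 1.00 and 1.2 and so stayed at about 2-fold or above throughout. The highest array of these 3 genes had nzz RNA in Cy5 in AT1G12805 and AT2G41090 and in Cy3 in AT1G80130.

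In 3 other genes of the upper group, 1 array lay far from the other 3, above them in AT1G13230 and AT5G54360 and below them in AT1G22600. AT1G13230 read 2.78, 0.84, 1.05 and 0.91, AT5G54360 read 0.53, 2.41, 0.69 and 0.65, and AT1G22600 read 1.6, 1.5, 0.60 and 1.68. The array that stood apart was a different one each time, array 1, array 2 and array 3.

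The other 5 of the 15 genes with the highest means were spread more evenly. AT3G48640 read 1.94, 0.94, 0.95 and 1.47, and AT3G55240 read 1.68, 0.76, 1.42 and 0.93. AT4G30250 read 1.39, 1.43, 0.59 and 0.92. AT3G19410 read 0.65, 1.29, 1.43 and 0.77, and AT3G61820 read 1.22, 1.29, 0.66 and 0.90. All of them averaged between 2.02-fold and 2.51-fold.

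Several genes had nearly the same ratio on all 4 arrays. AT4G00870 read 0.92, 0.94, 1.01 and 0.90 and AT1G30170 read 0.75, 0.80, 0.78 and 0.86, each with an SD of 0.05. AT1G27030 read 1.09, 0.86, 0.99 and 1.00. These genes were chosen after their values were seen, and their ratios were alike with either dye.

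The sizes of the ratios differed between the arrays with nzz in Cy5 and those with nzz in Cy3. Arrays 1 and 2 carried nzz RNA in Cy5 and arrays 3 and 4 in Cy3, so dye and array pair cannot be told apart. The mean of the 2 Cy5 arrays was above that of the 2 Cy3 arrays in 50 of the 66 genes, and in 5 genes the means were over 1 apart. The same shares over all probes are not given here. The highest array was array 1 in 27 genes, array 2 in 21, array 3 in 12 and array 4 in 6. The medians of the 66 genes were 0.89, 0.85, 0.76 and 0.69 on arrays 1 to 4, beside medians of all gene probes of 0.13, 0.10, 0.05 and 0.02, so that the whole array shifted the same way by a smaller amount.

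At the threshold, the 3 genes just inside had lowest nzz arrays of 0.501 (AT1G72210), 0.503 (AT4G09500) and 0.507 (AT5G16030), and the 3 just outside of 0.499 (AT2G41990), 0.497 (AT5G48310) and 0.494 (AT4G21310). AT1G72210, listed with the synonym bHLH096 and so a member of the basic helix-loop-helix family of DNA-binding regulators, read 1.5, 0.89, 0.54 and 0.50. AT2G41990, left out, read 0.75, 0.58, 0.50 and 0.64. The lowest array lay between 0.5 and 0.6 in 34 of the 66 genes, and between 0.4 and 0.5 in 81 further probes annotated by a locus alone. No gap in the values separates the group from the probes below it.

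A second probe existed for 3 of the genes. For AT1G79720 it read 0.87, 0.53, 0.41 and 0.74 in nzz (mean 0.64, against 0.80 for the selected probe), and for AT5G39220 it read 0.74, 0.74, 0.50 and 0.43 (mean 0.60, against 0.68). For AT3G46270 it read -0.41, 0.08, -0.32 and -0.82 (mean -0.37, against 0.90). The probes of the first 2 genes pointed the same way on every array, and those of AT3G46270 did not, so its rise rests on 1 probe.

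The genes lie on all 5 chromosomes, with 22, 10, 14, 8 and 12 on chromosomes 1 to 5. Chromosome 1 holds 33.3% of them, beside 25.6% of all probes annotated by a locus alone. Close pairs were few: AT3G61820 and AT3G61840 have 3 genes between them, and AT2G40250 and AT2G40200 have 5. The genes directly beside the 66 were measured by 60 probes, whose nzz means had a median of 0.18, beside 0.10 over all gene probes, and 0 of the 60 probes were above 0.5 on every nzz array, beside 0.788% of all gene probes.

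In the same nzz inflorescences, genes of pollen and tapetum lay on the other side. Of genes with a symbol, limma called 7 of 8 measured mature pollen genes lower (median -2.10) and 4 of 5 tapetum genes lower (median -5.01), among them ACT12, a pollen actin, at -4.14 ± 0.20 (SE, n = 4, adjusted p = 3.16e-05), and AMS, a basic helix-loop-helix regulator of the tapetum, at -5.32 ± 0.61 (SE, n = 4, 1 array at the limit, adjusted p = 0.000867). The side on which these genes lie helped to choose the sign of all ratios, and so is no separate result. Of 4 early anther genes, EMS1, a receptor kinase needed to form the tapetum, fell by 0.55 (adjusted p = 0.00366). Over all probes, the same fit called 6.91% lower and 8.32% higher in nzz.

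In the other lists few genes were called. Of 6 ovule and carpel genes, NGA3, a B3-domain regulator of the style, was higher in nzz (0.45, 0.46, 0.78 and 0.76; adjusted p = 0.00228), and of 3 meiosis genes SDS, a meiotic cyclin, was higher (0.67, 0.60, 0.44 and 0.24; adjusted p = 0.0101). KIN1, a cold-induced gene, was lower (-1.14 ± 0.18, SE, n = 4, adjusted p = 0.00415), the 1 call among 4 defence and stress genes. None of 2 meristem and boundary genes, 2 photosynthesis genes, 2 mitosis genes and 1 nectary gene was called, and no epidermis or petal gene of the lists had a named probe.

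In ms1 inflorescences most of the genes had a mean ratio of 0.3 or less, but the name "raised in nzz only" is not borne out for all of them. The number of ms1 arrays above 0.3 was 0 in 8 genes (42.8% of all probes with 4 ms1 values), 1 in 24 (32.1%), 2 in 25 (20%) and 3 in 9 (4.27%). The ms1 mean was above 0.5 in 11 genes, beside 7.05% of all probes, above 0.3 in 23, beside 12.3%, and below 0 in 15, beside 46.7%. The median of the means was 0.21, beside 0.02 over all probes. All 4 ms1 arrays were above 0 in 15 genes, beside 7.93%, and below 0 in 2, beside 7.25%. The condition on ms1 excluded 0 of the probes annotated by a locus alone and 5 of all probes, so in effect the condition on nzz made the selection.

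The array of ms1 that stood apart was also the one where these genes were highest. On ms1 arrays 1 to 4 the medians of the 66 genes were 0.04, 0.54, 0.24 and 0.12, and array 2 was the highest of the 4 in 36 genes. Without array 2, 0 genes had all 3 other arrays above 0.3, 10 had a mean above 0.5, 20 a mean above 0.3, and the median of the means was 0.14, beside 0.04 over all probes. Shares over all probes are not given here for these counts or for the 36 genes, so like shares over all probes are possible. AT1G53070 (0.68, 1.44, 0.50 and 0.28) and AT4G10270 (1.07, 1.74, 0.58 and 0.12) were positive on all 4 ms1 arrays. AT1G52200 (-1.17, -3.69, -0.49 and -0.45) and AT4G35870 (-0.78, -1.56, -1.57 and -6.64, the last at the limit) were the 2 genes below 0 on all of them. Since the selection used these arrays, they are described and not tested.

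**Figure D2:**
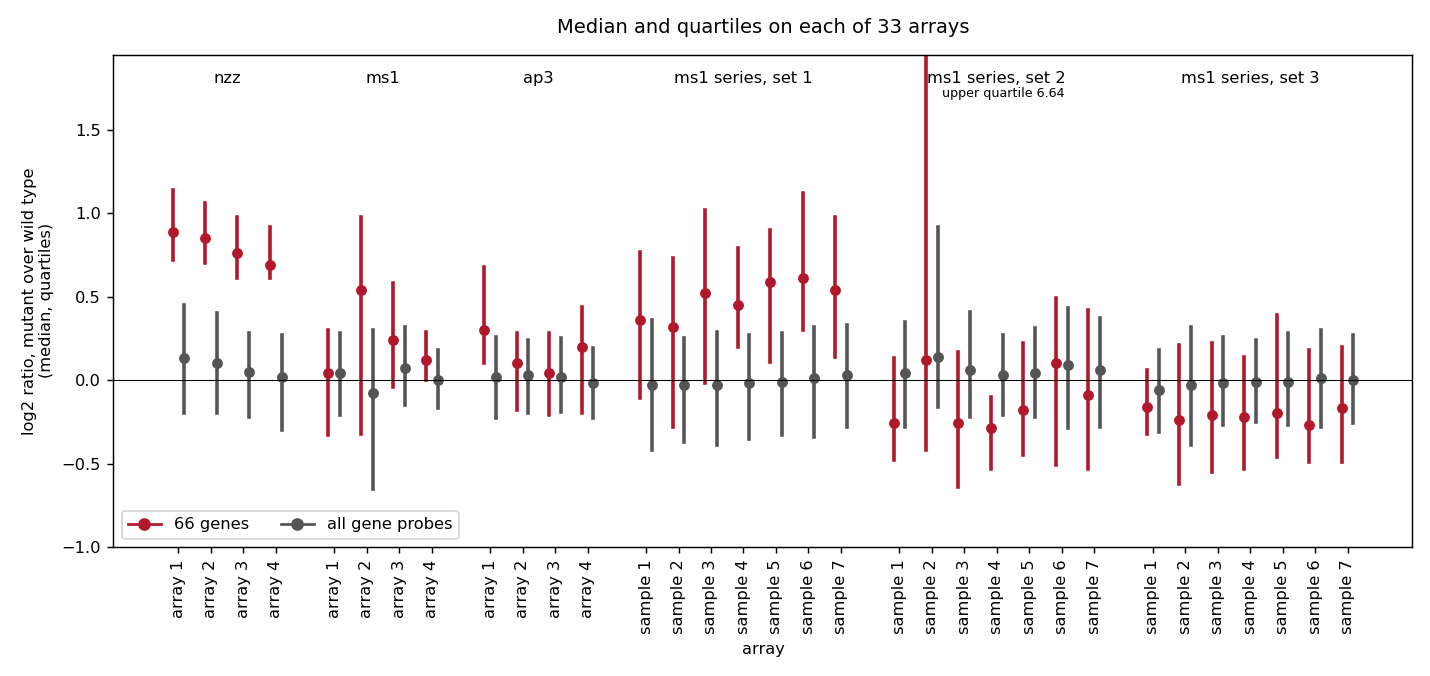
Log2 ratio of mutant over wild type (y axis) on each of 33 arrays (x axis): points are medians and lines span the quartiles, for the 66 genes (red) and for all gene probes (grey). The 66 genes lie at 0.32 to 0.61 on the 7 set 1 arrays of the ms1 series and at -0.27 to -0.16 on the 7 set 3 arrays, and the upper quartile of series sample 2 in set 2 lies beyond the axis at 6.64.

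The ms1 flower series was not used to select the genes, and it asked whether they stand high in ms1 flowers at any age. By sample, limma with Benjamini-Hochberg adjustment over all probes called 0 of the 66 in each of samples 1 to 7. Over all probes it called 0.00767% in sample 1, 0.53% in sample 2, 1.53% in sample 3, 1.27% in sample 4, 1.34% in sample 5, 0.882% in sample 6 and 0.568% in sample 7. Without set 1, 7 genes were called in some sample, and without set 2, 1 gene, for which shares over all probes are not given here. At an unadjusted p under 0.05 the counts among the 66 were 1, 12, 2, 1, 4, 6 and 3 from sample 1 to sample 7, that is 1.52%, 18.2%, 3.03%, 1.52%, 6.06%, 9.09% and 4.55%. Over all probes the shares were 3.51%, 15.2%, 9.18%, 5.05%, 6.88%, 10.1% and 6.51%. Sample 2, with the highest share in both, includes the array with 16.8% of its values at the limit. The medians of the 66 genes were -0.04, 0.08, -0.01, -0.02, 0.07, 0.17 and -0.01 by sample, beside 0.00, 0.07, 0.04, 0.04, 0.06, 0.08 and 0.07 over all probes.

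For the mean of the 7 samples, limma called 2 of the 66 genes higher (3.03%), beside 2.18% of all probes, and 0 lower, beside 2.33%. At an unadjusted p under 0.05, 5 of the 66 were higher and 0 lower (7.58%), beside 17.9% of all probes in either direction. The median of the 66 was 0.03, beside 0.05 over all probes. The count depended on the sets: it was 20 without set 1 and 5 without set 2. Shares over all probes in these reduced fits are not given here, so a like rise over all probes is possible. The fit also treats the arrays as independent, although arrays of 1 set deviated together (r = 0.25 to 0.81) and there were 3 collections.

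AT1G68620 had a series mean of 0.90 ± 0.19 as estimated by limma with the dye term (SE, n = 21 arrays; 1.87-fold, adjusted p = 0.0115). That estimate is not a plain average of the arrays, since it gives set 2 as much weight as sets 1 and 3 together. The plain set means were -0.64, 1.94 and 0.37 for sets 1 to 3. From sample 1 to 7 it read -2.69, -1.0, -1.26, -0.63, -0.56, 0.64 and 0.98 in set 1. In set 2 the same samples read 0.90, 2.49, 0.72, 1.86, 3.20, 2.49 and 1.89. In set 3 they read 0.10, -0.63, -0.50, 0.12, 0.60, 1.37 and 1.55. Every array of set 2, the set with ms1 in Cy5, was above 0.5, and without that set the mean was -0.14 (adjusted p = 0.714). The call was also lost without set 3 (0.65, adjusted p = 0.153) and without the dye term (0.55, adjusted p = 0.487). In all 3 sets the 2 youngest samples lay above the 2 oldest on average, by 1.63 ± 0.47 (SE), which did not pass the test (adjusted p = 0.19).

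AT1G28190 had a series mean of 0.48 ± 0.11 by the same estimate (SE, n = 20 arrays with a value; 1.40-fold, adjusted p = 0.0251 by limma). Its set means were 0.24, 0.59 and 0.59 for sets 1 to 3. From sample 1 to 7 in set 3 it read 0.05, -0.05, 0.51, 0.86, 0.85, 0.90 and 1.03. Of the 2 called genes it was the one with a positive mean in every set. Without set 2 its estimate was 0.41 (adjusted p = 0.049 by limma). Without set 1 or without set 3 it could not be tested, because too few values remained in sample 3.

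Between the youngest samples (6 and 7) and the oldest (1 and 2), limma called 0 of the 66, beside 0.811% of all probes. At an unadjusted p under 0.05 there were 6 genes (9.09%, beside 8.77% of all probes), 5 with a higher ratio in the youngest samples and 1 lower, and the median difference was -0.03, beside 0.01 over all probes. No gene of the 66 was positive on all 21 series arrays, and the most any reached was 17. AT1G16950, the gene with the highest nzz mean, was among those that reached 17. Its series mean was the largest of the 66 at 1.8 ± 0.5 (SE) and was not called (adjusted p = 0.0602 by limma). The plain set means were -0.26, 3.44 and 0.57 for sets 1 to 3, and 3 of its series arrays were at the limit.

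For these genes the sets of the series differed. The median of the 66 genes was 0.32 to 0.61 on all 7 set 1 arrays, -0.29 to 0.12 on the set 2 arrays and -0.27 to -0.16 on the set 3 arrays. All gene probes had medians of -0.03 to 0.03, 0.03 to 0.14 and -0.06 to 0.01 on the same arrays. Sets 1 and 3 both carried ms1 RNA in Cy3, so the dye of the ms1 RNA was the same in both. The sets are different collections, and the pattern, noticed after the data had been seen, is described without a test because each set is 1 collection of plants.

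Counted by gene, the mean of the 7 set 1 arrays was above 0.5 in 29 of 64 genes with all values (45.3%), beside 9.59% of all probes. In set 2 this held for 20 of 63 (31.7%), beside 27.3%, and in set 3 for 4 of 64 (6.25%), beside 9.53%. These means include limited values, which have no measured size, and the set 2 array of sample 2 had 16.8% of them. A single limited value can lift a mean above 0.5. AT1G72210 had a set 2 mean of 0.58, with 6.64 in sample 2 and negative ratios on all its other set 2 arrays. The set 2 shares therefore do not show that genes stood high across that set. The set 1 array was above the set 3 array in all 7 samples in 32 of 62 genes (51.6%), beside 14.4% of all probes, and below it in all 7 in 3 (4.84%), beside 14% of all probes. In 27 of the 62 (43.5%) the lowest set 1 array was above the highest set 3 array, beside 7.88%. The 3 genes on the other side were AT1G68620, AT5G16030 and AT3G19410. Among the genes with every nzz array above 1, 0 of the 3 with all values had set 1 above set 3 throughout.

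AT1G53070 lay between 1.25 and 1.84 on the 7 set 1 arrays of ms1, between -1.32 and -0.75 in set 2 and between -1.06 and -0.46 in set 3. AT3G61820 lay between 1.01 and 1.79 in set 1, between -0.87 and -0.45 in set 2 and between -1.06 and -0.45 in set 3. AT1G61930 lay between 1.24 and 1.75 in set 1, between -1.52 and -0.23 in set 2 and between -0.96 and 0.01 in set 3. In these 3 genes, chosen after their values were seen, set 1 overlapped neither other set, and the ratio changed sign between collections.

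AT1G28590 had the largest difference between the means of sets 1 and 3 (2.96), with 1.32 to 5.11 in set 1 and -1.24 to -0.12 in set 3, while set 2 ran from -2.21 to the limit of 6.64. AT3G53190 lay between 0.90 and 1.53 in set 1, against -1.51 to -0.54 in set 2 and -0.90 to -0.26 in set 3. AT1G12805, also among the 5 highest nzz means, averaged 1.61 in set 1, against -1.17 in set 2 and -0.40 in set 3. In these genes, ratios of the size seen in nzz were thus also met in ms1 flowers of set 1. The labels do not say whether nzz tissue was collected with one of the series sets.

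**Figure D3:**
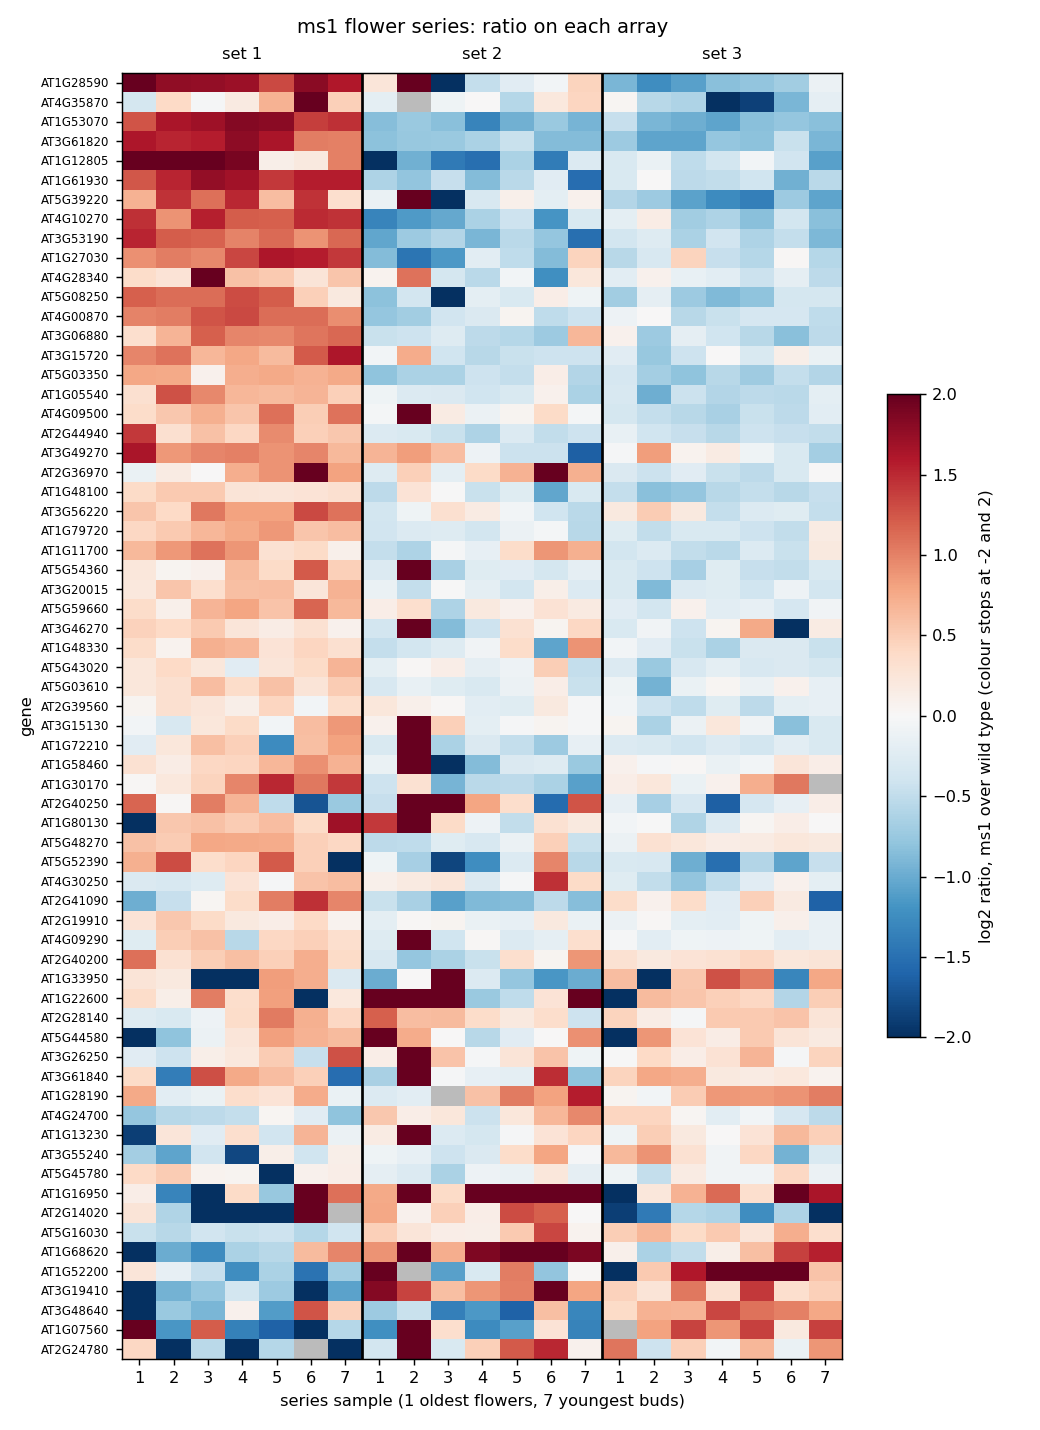
Log2 ratio of ms1 over wild type (colour, limited to -2 to 2 in the drawing) of the 66 genes (rows, ordered by set 1 minus set 3) in series samples 1 (oldest) to 7 (youngest) of sets 1, 2 and 3. Grey cells have no value. Most of the upper rows are red in set 1 and mostly blue in sets 2 and 3, while AT4G35870 among them has both signs in sets 1 and 2. AT1G68620 near the bottom is red through set 2.

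The ap3 arrays, also not used in the selection, asked whether the genes were higher in young buds without stamens. In limma with the ap3 and series arrays (25), 1 of the 66 was called lower (1.52%), beside 0.192% of all probes, and 0 were called higher, beside 0.0615%. At an unadjusted p under 0.05, 3 genes were higher and 2 lower (7.58%, beside 4.6% of all probes). The median of the 66 was 0.15, beside 0.02 over all probes, and 48 of the 66 (72.7%) had a ratio above 0, beside 54.4% of all probes.

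By array, the medians of the 66 genes in ap3 were 0.30, 0.10, 0.04 and 0.20, with the higher values on arrays 1 and 4, which carried ap3 RNA in Cy3. All 4 ap3 arrays were above 0 in 18 of 64 genes with all values (28.1%), beside 8.96% of all probes, and below 0 in 5 of 64 (7.81%), beside 7.98%. All 4 were above 0.5 in 1 of 64 (1.56%), beside 0.126%. Positive ratios in ap3 were thus more frequent among the 66 than over all probes, and no single gene passed the test as higher.

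AT3G49270 was the gene above 0.5 on every array of both mutants. It read 0.88, 0.82, 0.87 and 0.63 in nzz, and in ap3 it read 2.44, 1.16, 1.14 and 0.67. Its ap3 ratio of 1.35 ± 0.34 (SE, n = 4) had an adjusted p of 0.207 by limma. In the ms1 series it averaged 1.00 in set 1, -0.07 in set 2 and 0.00 in set 3.

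AT3G15720 read 0.52, 0.64, 0.84 and 0.67 in nzz and 1.05, 0.48, 0.43 and 1.01 in ap3, where its ratio was 0.74 ± 0.34 (SE, n = 4, adjusted p = 1 by limma). AT5G48270 read 0.35, 0.32, 0.41 and 0.60 in ap3 (0.42 ± 0.15, SE, n = 4, adjusted p = 0.722). Both were positive on every ap3 array, and neither passed the test.

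AT2G28140 went the other way in ap3. It read 0.96, 1.23, 0.75 and 0.66 in nzz, and in ap3 it fell to -1.48, -0.83, -0.91 and -1.01. The ap3 ratio was -1.06 ± 0.21 (SE, n = 4), with an adjusted p of 0.0467 by limma that was no longer under 0.05 when any 1 of the ap3 arrays was left out (0.0627 to 0.277). Its ms1 arrays read 0.15, 0.43, 0.22 and 0.39. The arrays of ap3 and nzz did not overlap, and the difference between the 2 mutants, whose tissues differ in age, was not tested.

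The other 4 genes of this kind were above 0 on all nzz arrays and below 0 on all ap3 arrays. AT1G30170 read -0.81, -0.43, -1.74 and -0.98 in ap3 (-0.99 ± 0.27, SE, n = 4, adjusted p = 0.321 by limma), and AT5G44580 read -0.43, -0.63, -0.65 and -0.46. AT2G41090 read -0.12, -0.06, -0.39 and -1.23, and AT1G28190 read -0.04, -0.25, -0.59 and -0.35. None of these 4 passed the test in ap3.

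**Figure D4:**
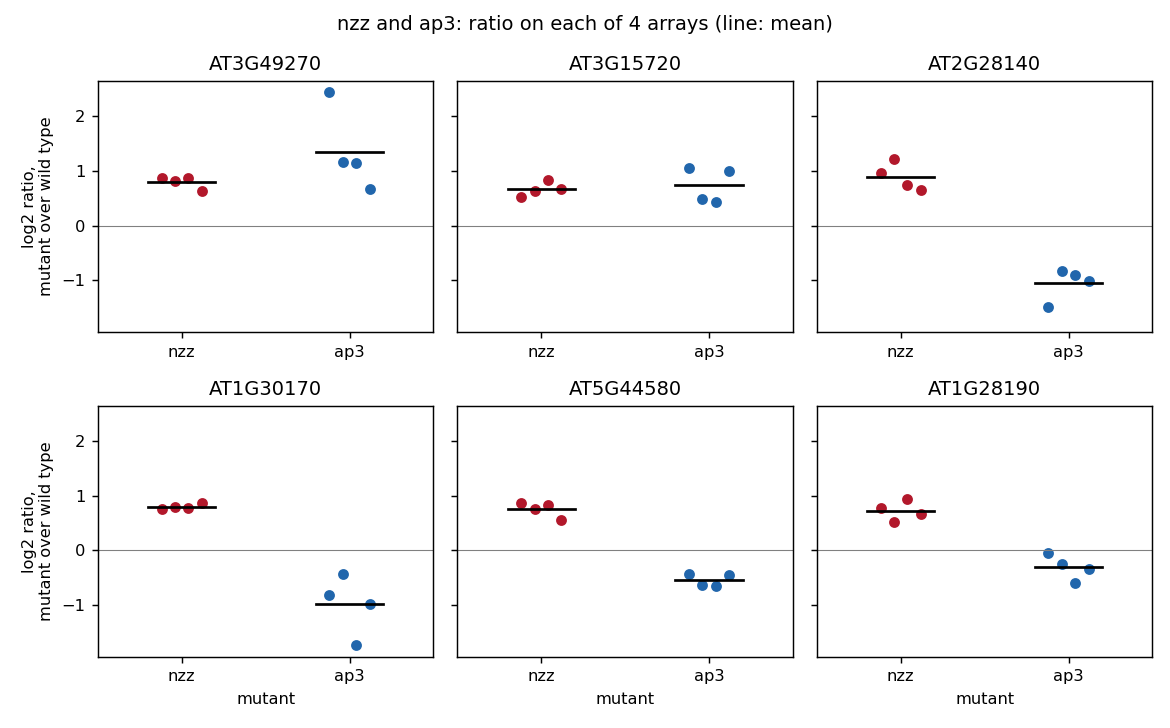
Log2 ratio of mutant over wild type (y axis) on each of 4 nzz arrays (red) and 4 ap3 arrays (blue) for 6 genes, with the mean as a line. AT3G49270 and AT3G15720 are above 0 in both mutants, and AT2G28140, AT1G30170, AT5G44580 and AT1G28190 are above 0 on all nzz arrays and below 0 on all ap3 arrays.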

How the data were processed

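The authors deposited 1 normalized table of ratios of the 2 RNAs of each array, read here as log10 values because none lies beyond 2 in size. The scanner and the way of normalizing were not found in any label or header. Each value was converted to log2 (times 3.32) with its sign changed, so that positive means higher in the mutant. A log2 ratio at 6.64 in size is at the limit and has no measured size. Of 26540 lines, 450 controls were left out. An array lacked 31 to 1328 values and had 2.36% to 16.8% of its values at the limit. The number of arrays limits the precision.

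Probes were named through the platform annotation, updated with RefSeq gene identifiers (assembly TAIR10.1; 13960 probes with a name, 13912 with a current locus). No sequence or gene description was used here, so classes by description and promoter motifs were not computed, and the only role given to a gene known by locus is that of AT1G72210, through its synonym.

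limma 3.58.1 (R 4.3.3, statmod 1.5.0) was fitted to the 21 series arrays with 1 dye term, to these with the 4 ap3 arrays, and to the 12 mutant arrays. A probe needed 3 of 4 values, or 2 of 3 in a series sample. Adjusted p-values are Benjamini-Hochberg over all probes, called under 0.05. Dye and set 2 cannot be told apart in the series. The series and ap3 fits were tested on simulated data, with errors drawn independently for each array. In the real data, arrays of the same set deviated together. The simulation therefore does not check the p-values under that dependence. Replicates were collected as independent sets, per the labels' protocols, but the labels leave unsaid whether the 4 arrays of 1 mutant are 4 such samples, so p-values may measure technical spread.

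Series sets, collected on different days per the labels, pair the samples: deviations of same-set arrays correlated at 0.25 to 0.81 (63 pairs).

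Named were the 15 genes with the highest nzz means, the 3 on each side of the threshold, every gene called in ap3 or the series, those with a second probe or with all ap3 arrays above 0.5, and list genes called. Others named were chosen after their values were seen. The genes and lists were chosen with earlier results of these data known.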

Additional observations from a re-analysis of the deposited data

Results flagged for a closer look

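In 9 of 64 groups of 4 arrays tested in 22 genes, 1 array lay far from the other 3 by Dixon's criterion. The criterion is met by chance in about 1 group of 20, a rate that cannot be applied to the nzz and ms1 values, since these selected the genes. In ap3 it was met in 4 of 20 groups. The ap3 values did not enter the selection rule, but AT2G28140 and AT3G49270 were named through them. The share over all probes is not given here. In nzz the arrays that met the criterion were array 1 of AT1G13230 (2.78), array 3 of AT1G22600 (0.60) and array 2 of AT5G54360 (2.41). In ms1 they were array 1 of AT1G07560 (6.64) and array 2 of AT1G33950 (-6.64), both at the limit. In ap3 they were array 1 of AT1G16950 (-1.26), array 1 of AT1G33950 (1.18), array 4 of AT1G12805 (1.77) and array 3 of AT4G09500 (-0.04).

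In 7 genes every array of another mutant lay on the opposite side of 0 from every nzz array. The difference between the mutants was not tested. In ap3 these were AT2G28140 (ratio -1.06), AT1G30170 (-0.99), AT5G44580 (-0.54), AT2G41090 (-0.45) and AT1G28190 (-0.31). In ms1 they were AT4G35870 (mean -2.64) and AT1G52200 (mean -1.45). Such genes were no more frequent than over all probes. All 4 ap3 arrays were below 0 in 5 of 64 genes (7.81%), beside 7.98% of all probes. All 4 ms1 arrays were below 0 in 2 of 66, beside 7.25%.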

How the results depend on the processing

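The number of genes in the group depended on the threshold. It was 147, 32 and 5 with every nzz array above 0.4, 0.6 and 1, and 115 to 141 when 1 nzz array was left out. Centring arrays on their median left 47 genes, all of them among the 66. Scaling arrays to one spread gave 62, of which 54 were among the 66. The number was 8 with no ms1 array above 0.3, 43 with an ms1 mean not above 0.3, and 135 with any annotation. In the series mean, 2 genes were called, against 1 without the dye term, 11 with values read as dye ratios, 1 with genes chosen after centring, 0 with every nzz array above 1, 4 with any annotation and 2 to 20 when 1 set was left out. With set as a replicate block in place of the dye term it was 5, the 2 calls included. By sample, 0 genes were called, against 1 with dye ratios, 1 with any annotation and 0 to 7 when 1 set was left out. Between youngest and oldest samples it was 0, against 1 with dye ratios and 0 to 1 without a set. AT1G68620 turned to -1.04 with dye ratios and to -0.14 without set 2 (-0.14 to 1.15 when 1 set was left out), and AT1G28190 to -0.10 with dye ratios. The median of the genes in the series mean (0.03) was 0.38 within set 1 alone, -0.04 within set 2 and -0.30 within set 3. In ap3, 1 gene was called, against 0 without the dye term, 3 with arrays scaled to one spread, 0 with every nzz array above 1, 0 to 1 without 1 ap3 array, 2 in the fit of the 12 mutant arrays, 0 with a replicate block there and 0 with the ap3 arrays alone. The ap3 median (0.15) was -0.09 with every nzz array above 1. The share with set 1 above set 3 in all samples (51.6%) was 0% with every nzz array above 1 and 45.5% to 59.6% in the other settings, all added after seeing the data. The 15 calls in the fixed lists kept within 1.5 times in all settings run. For the counts of called genes, shares over all probes in these other settings are not given here. Causes of these changes were not tested.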
